A study of Mus musculus with 9 samples.

Results

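Levels of 5 subunit genes of the sodium-potassium pump, Atp1b1, Atp1b2, Atp1b3, Fxyd1 and Fxyd5, were followed across 9 arrays of mouse myoblasts, the cells that fuse into skeletal muscle fibres. They were chosen by symbol, with the single probe set of each, out of 19661 genes measured. The cells, of Balb/c background and skeletal muscle origin, fell into 3 groups of 3 arrays: an empty vector control, titled CTAP Control in the labels, Pax3 overexpression and Pax7 overexpression. All cultures received F10 medium, 20% serum and 4 ng/ml basic fibroblast growth factor, and the labels name no promoter, clone or length of culture. The 5 genes were proposed with earlier results of these arrays in view, so their values in the comparisons of control, Pax3 and Pax7 arrays are a description and carry no test.

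The pump carries sodium out of the cell and potassium in, at the cost of ATP, and so keeps up the gradients on which muscle excitability and many transporters depend. A catalytic alpha subunit does the pumping, a glycosylated beta subunit is needed to bring it to the cell surface and also takes part in contact between cells, and a small membrane protein of the FXYD family tunes its affinity for ions. Beta 1 (Atp1b1) is the widespread beta form, beta 2 (Atp1b2) is also known as an adhesion molecule on glia, and beta 3 (Atp1b3) is a further form found in many tissues. Fxyd1, or phospholemman, is the regulator best known from heart and skeletal muscle, and Fxyd5, or dysadherin, is known for its link to weaker adhesion between cells. Pax3 and Pax7, regulators of muscle precursors, bind DNA through a paired domain and a homeodomain.

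The promoter sequences of the subunit genes whose levels differed most between groups are shown with that of Fxyd1, which stood close to Fxyd5 in gene order and did not share its pattern. Each runs from 250 bases before to 50 bases after the RefSeq start in GRCm38.p6, 5′ to 3′ along the gene. Promoter windows were matched for 4 of the 5 genes, all but Atp1b2. Capitals mark 4 short motifs searched on both strands: TAAT, the core bound by homeodomains; GTCAC, a stretch found within paired-domain sites; CANNTG, the E-box read by myogenic bHLH factors; and GGGCGG, the GC box.
Atp1b1, chr1:164458306-164458605, minus strand: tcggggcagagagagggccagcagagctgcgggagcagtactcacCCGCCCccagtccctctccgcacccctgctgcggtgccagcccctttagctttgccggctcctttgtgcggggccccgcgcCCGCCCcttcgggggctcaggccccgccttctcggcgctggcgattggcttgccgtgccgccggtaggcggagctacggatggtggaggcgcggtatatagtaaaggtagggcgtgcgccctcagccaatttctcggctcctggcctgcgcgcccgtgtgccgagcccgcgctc
Fxyd5, chr7:31042282-31042581, minus strand: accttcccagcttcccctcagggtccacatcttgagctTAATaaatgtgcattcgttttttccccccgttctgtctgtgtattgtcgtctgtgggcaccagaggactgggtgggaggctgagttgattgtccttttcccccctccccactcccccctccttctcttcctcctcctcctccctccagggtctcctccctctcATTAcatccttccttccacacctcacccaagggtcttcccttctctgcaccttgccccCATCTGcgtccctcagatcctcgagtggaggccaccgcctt
Fxyd1, chr7:31054804-31055103, minus strand: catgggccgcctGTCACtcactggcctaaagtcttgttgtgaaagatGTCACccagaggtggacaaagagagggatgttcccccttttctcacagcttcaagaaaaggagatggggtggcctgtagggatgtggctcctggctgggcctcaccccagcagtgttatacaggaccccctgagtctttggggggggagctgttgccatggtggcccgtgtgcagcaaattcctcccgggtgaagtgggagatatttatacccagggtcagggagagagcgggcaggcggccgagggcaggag
Fxyd6, chr9:45369935-45370234, plus strand: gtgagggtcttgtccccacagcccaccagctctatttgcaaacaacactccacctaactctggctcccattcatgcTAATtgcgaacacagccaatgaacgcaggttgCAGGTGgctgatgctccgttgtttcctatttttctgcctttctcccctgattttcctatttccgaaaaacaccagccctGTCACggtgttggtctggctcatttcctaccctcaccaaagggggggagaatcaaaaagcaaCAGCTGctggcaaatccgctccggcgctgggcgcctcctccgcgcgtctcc
The Atp1b1 window held 2 GC boxes and none of the other motifs, with 31 CpG dinucleotides against a median of 7 over 32851 promoter windows of the same length. The Fxyd5 window held TAAT 212 bases before the start, ATTA 49 bases before it and 1 E-box, with 6 CpG dinucleotides. The Fxyd1 window held GTCAC 2 times, and the Fxyd6 window 1 TAAT, 2 E-boxes and 1 GTCAC. The Atp1b3 gene has 2 annotated starts, whose windows are not printed. The window of the upstream start held 6 GC boxes and 1 E-box that overlaps the second of them, and that of the other start held 1 TAAT, 1 E-box and 2 copies of the reverse complement of GTCAC. Of all windows, 58.03% held TAAT or its reverse complement, 72.31% an E-box, 45.59% GTCAC or its reverse complement and 35.66% a GC box. A match is a stretch of letters and not a shown binding site, and no binding was measured in these samples.

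The arrays followed their labels for the overexpressed genes and differed in sex-linked transcripts. Values are deposited log2 intensities, in which 1 unit is a doubling of signal and levels of different probe sets are not comparable. Pax3 ranged from 5.78 to 5.91 in control arrays, 11.01 to 11.10 with Pax3 and 6.80 to 6.87 with Pax7, and Pax7 from 10.45 to 10.60, 8.14 to 8.26 and 12.25 to 12.31. Myoblast markers were high in all groups: MyoD (Myod1) averaged 12.62, 12.50 and 12.18 and desmin (Des) 12.13, 11.62 and 10.80 in control, Pax3 and Pax7 arrays. Xist, made from the inactive X chromosome, ranged from 4.62 to 4.85 in control arrays and from 11.70 to 12.04 in the other 6, while the Y-linked Eif2s3y, Uty and Kdm5d ranged from 8.28 to 9.36 in control arrays and from 3.07 to 4.42 in the others. Cell origin and overexpression therefore cannot be told apart in either comparison with control, while between Pax7 and Pax3 arrays the 3 Y-linked genes did not pass (limma adjusted p from 0.551 to 0.718) and Xist was lower in Pax7 arrays (-0.24 ± 0.064, limma adjusted p = 0.0262). Whether the 3 arrays of a group stem from separate cultures is not stated in the labels, so each p-value reflects the spread among these RNA samples alone, and that spread may be technical. In such bulk samples, fewer cells of a type and less RNA per cell cannot be told apart.

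Atp1b1, the widespread beta subunit, lay in opposite directions from control in the Pax3 and Pax7 arrays. The control arrays read 9.28, 9.26 and 9.32 on the log2 scale, the Pax3 arrays 8.65, 8.51 and 8.38 and the Pax7 arrays 10.08, 10.04 and 10.03. No array of one group overlapped with another group: all Pax3 arrays were low, all Pax7 arrays high and the control arrays between them. The control mean was 9.29 ± 0.026, the Pax3 mean 8.51 ± 0.134 and the Pax7 mean 10.05 ± 0.026 (SD, 3 arrays per group). The difference from control was -0.77 ± 0.061 in Pax3 arrays (moderated standard error of the log2 difference), or 1.71-fold lower, and 0.76 ± 0.061 in Pax7 arrays, or 1.70-fold higher. Pax7 arrays stood 1.54 ± 0.061 above Pax3 arrays, a 2.90-fold difference. The control arrays are shared by both comparisons with control.

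Fxyd5, the regulator tied to weaker adhesion, was far higher in Pax7 arrays than in the other groups. It stood at 5.35, 5.58 and 5.56 in control arrays, 5.90, 5.90 and 5.79 with Pax3 and 7.77, 7.62 and 7.76 with Pax7. The 3 groups did not overlap, with control arrays lowest, Pax3 arrays just above them and Pax7 arrays well apart. The control mean was 5.50 ± 0.127, the Pax3 mean 5.86 ± 0.062 and the Pax7 mean 7.71 ± 0.084 (SD, 3 arrays per group). The difference from control was 0.37 ± 0.069 in Pax3 arrays, or 1.29-fold higher, and 2.22 ± 0.069 in Pax7 arrays, or 4.65-fold higher. It was 1.85 ± 0.069 between Pax7 and Pax3 arrays, or 3.61-fold. The control values lay low on the scale and the files used here carry no detection calls, so the folds over control are ratios of signal and do not show whether the transcript was present there.

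Atp1b3, the third beta form, was slightly higher in both overexpressing groups. Control arrays read 11.06, 11.06 and 11.01, Pax3 arrays 11.21, 11.32 and 11.24, and Pax7 arrays 11.26, 11.22 and 11.30. All 6 overexpressing arrays lay above the 3 control arrays, and the Pax3 and Pax7 arrays overlapped with each other. The log2 difference from control was 0.21 ± 0.045 in Pax3 and 0.22 ± 0.045 in Pax7 arrays (moderated standard error, n = 3 per group), 1.16-fold in both. The values sat high on the scale, at the 97.4 percentile of gene means.

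Atp1b2, the glial adhesion form, and Fxyd1, the muscle regulator, gave overlapping values in all groups. Atp1b2 read 6.16, 6.17 and 6.17 in control, 6.21, 6.17 and 6.33 in Pax3 and 6.17 in each of the Pax7 arrays. Of its 9 values, 6 were exactly the same, so its SD says little about how repeatable the measurement was. Its differences from control were 0.07 ± 0.046 in Pax3 and 0.0035 ± 0.046 in Pax7 arrays. Fxyd1 read 5.57, 5.57 and 5.67 in control arrays, 5.56, 5.43 and 5.67 with Pax3 and 5.55, 5.57 and 5.60 with Pax7. Its differences from control were -0.05 ± 0.060 and -0.03 ± 0.060. The intensities of these probe sets lay in the lower part of the table, at the 41.9 percentile for Atp1b2 and the 31.3 percentile for Fxyd1 among gene means, and the files used here carry no detection calls, so these values do not show whether either transcript was present.

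**Figure D1:**
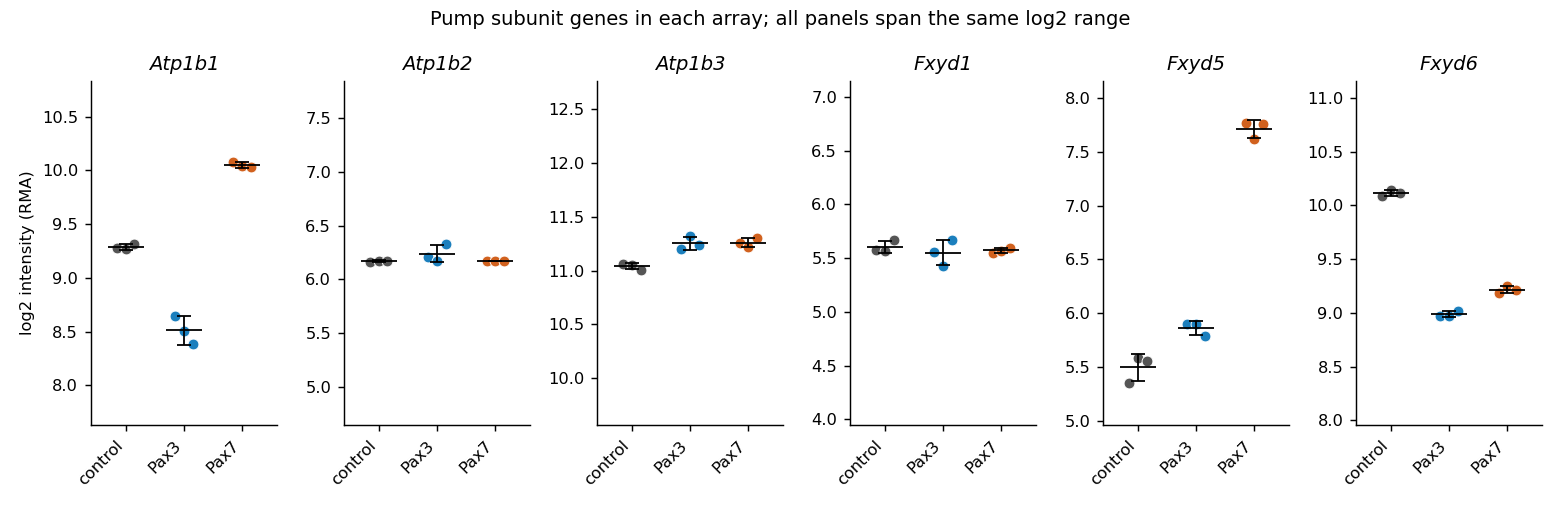
Log2 intensity (RMA) of the 5 subunit genes and of Fxyd6 in each array, grouped as control, Pax3 and Pax7; points are arrays, the horizontal mark and bars are mean and SD of 3 arrays, and all panels span the same log2 range. Atp1b1 is low in Pax3 arrays and high in Pax7 arrays, Fxyd5 is high in Pax7 arrays, and Atp1b2 and Fxyd1 overlap in all groups.

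Read as a set, the 5 genes did not move together. Against control, the groups did not overlap for 3 of the 5 in Pax3 arrays, 2 higher and 1 lower, against 45.1% of all genes, 22.8% higher and 22.3% lower. In Pax7 arrays they did not overlap for 3 of the 5, all higher, against 55.5% of all genes, 29.3% higher and 26.2% lower. In the comparison of Pax7 with Pax3 arrays they did not overlap for 2 of the 5, Atp1b1 and Fxyd5, both higher in Pax7 arrays, against 29.4% of all genes, 14.7% higher and 14.6% lower. The median log2 difference of the 5 genes was 0.07, 0.22 and 0.02 in the 3 comparisons, beside 0.02, 0.03 and 0.01 over all genes. Because the choice of genes rested on these same contrasts, the counts are given for completeness only. RNA levels of single subunits do not give the amount of assembled pump.

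Among the pump subunit genes outside the 5, Fxyd6 fell in both overexpressing groups. Fxyd6, or phosphohippolin, a regulator best known from brain, stood at 10.09, 10.14 and 10.12 in control arrays, 8.97, 8.97 and 9.02 with Pax3 and 9.18, 9.25 and 9.21 with Pax7. Control arrays were highest, Pax3 arrays lowest, and no groups overlapped. It fell 2.19-fold in Pax3 arrays (-1.13 ± 0.040, limma adjusted p = 2.9e-09) and 1.87-fold in Pax7 arrays (-0.90 ± 0.040, adjusted p = 1.05e-08), and was higher in Pax7 than in Pax3 arrays by 0.23 ± 0.040 (adjusted p = 0.00246). Fxyd3, first described in breast tumours, rose by 0.19 ± 0.056 in both groups (limma adjusted p = 0.0168 for Pax3 and 0.0175 for Pax7). Its calls ended when control replicate 1 or control replicate 2 was left out, and for Pax7 also without Pax7 replicate 2 (adjusted p up to 0.0697). The gene mean of Fxyd3 lay at the 26.8 percentile, so its values do not show whether the transcript was present.

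The other 5 measured subunit genes did not pass against control or between Pax7 and Pax3 arrays. They were the sperm-enriched catalytic subunit Atp1a4, the beta-like Atp1b4, which in mammals is a protein of the inner nuclear membrane, the kidney regulators Fxyd2 and Fxyd4, and the brain regulator Fxyd7. Their differences from control ran from -0.04 for Fxyd2 to 0.12 for Atp1b4 in Pax3 arrays and from -0.03 for Atp1a4 to 0.07 for Fxyd7 in Pax7 arrays (limma adjusted p from 0.113 to 0.997). Their gene means lay at or below the 45.5 percentile. In all, 1 of 7 rose and 1 fell in each comparison with control, where 39.6% of all genes passed for Pax3 (19.8% upward, 19.7% downward) and 43.2% for Pax7 (21.6% and 21.5%). Only 1 of 7, Fxyd6, passed between Pax7 and Pax3 arrays, upward, against 16.9% of all genes (8.33% upward, 8.54% downward).

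**Figure D2:**
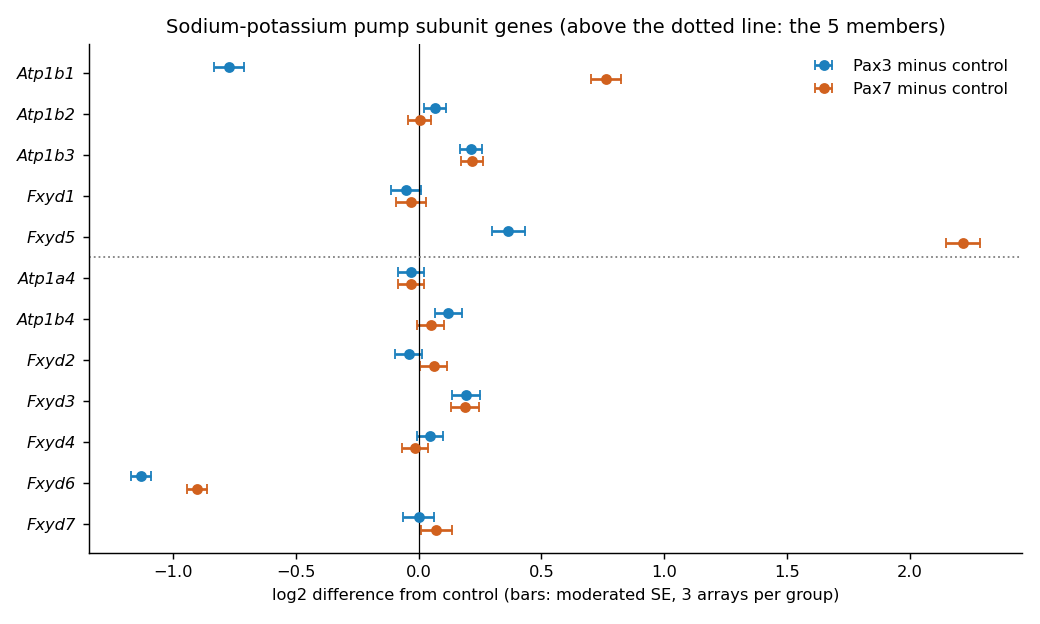
Log2 difference from control (x axis) for 12 pump subunit genes, in Pax3 arrays (blue) and Pax7 arrays (orange); bars are moderated standard errors with 3 arrays per group. Atp1b1 lies at -0.77 and 0.76, Fxyd5 reaches 2.22 in Pax7 arrays, Fxyd6 lies at -1.13 and -0.90, and most other subunit genes lie near 0.

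Fxyd5, Fxyd7, Fxyd1, Lgi4 and Fxyd3 follow each other in RefSeq gene order, which allowed Fxyd5 to be set beside its neighbours. Fxyd7 read 6.43, 6.43 and 6.50 on average in control, Pax3 and Pax7 arrays, and Lgi4, a secreted protein of peripheral glia, 5.26, 5.24 and 5.29. Of 15 protein-coding genes from 5 before to 5 after this stretch, 13 were measured, and of the 11 besides Fxyd5 and Fxyd1, 5 rose against control in Pax3 arrays, 4 in Pax7 arrays and 0 fell, beside 19.8% of all genes rising and 19.7% falling for Pax3, and 21.6% and 21.5% for Pax7. The neighbour that changed most was Gramd1a, a sterol transfer protein, at 0.44 ± 0.038 in Pax3 (limma adjusted p = 3.47e-06) and 0.60 ± 0.038 in Pax7 arrays (2.13e-07). The transcription factor Usf2 rose by 0.16 ± 0.047 and 0.30 ± 0.047 (adjusted p = 0.0161 and 0.000273), the first of which was lost without control replicate 1 (0.0687). The lipoprotein receptor Lsr rose by 0.25 ± 0.090 and 0.32 ± 0.090 (limma adjusted p = 0.0452 and 0.0134) and the iron hormone gene Hamp by 0.29 ± 0.104 in Pax3 arrays (0.0451). The Lsr call for Pax3 was lost without any one control array, Pax3 replicate 3, Pax7 replicate 1 or Pax7 replicate 3 (limma adjusted p up to 0.16), and that for Pax7 without control replicate 1 or Pax7 replicate 3 (up to 0.0595). The Hamp call was lost without any one array other than Pax3 replicate 2 (limma adjusted p up to 0.131). Hamp lay low on the scale, at 3.46, 3.75 and 3.49 on average in control, Pax3 and Pax7 arrays. Hamp2, Fam187b, Hpn and Scgb1b2 did not pass, with differences from -0.14 for Hamp2 in Pax3 arrays to 0.14 for Scgb1b2 in Pax7 arrays. Of these 11, only Gramd1a passed between Pax7 and Pax3 arrays, at 0.16 ± 0.038 (0.0162, and up to 0.0662 without Pax3 replicate 1, Pax7 replicate 1 or Pax7 replicate 2). In that comparison 16.9% of all genes passed.

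**Figure D3:**
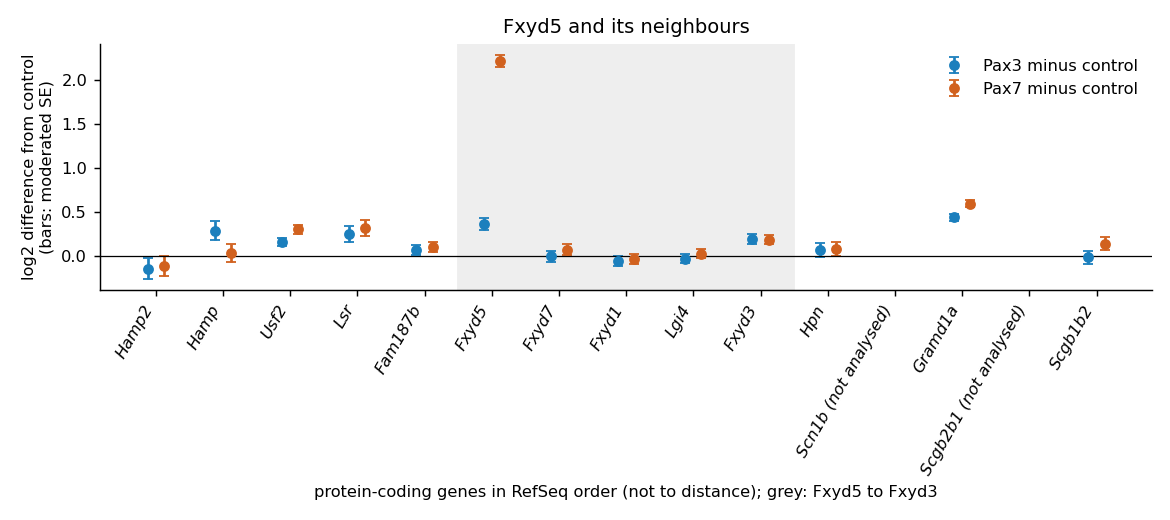
Log2 difference from control (y axis, bars are moderated standard errors) of protein-coding genes in RefSeq order around Fxyd5, in Pax3 (blue) and Pax7 (orange) arrays; the grey band spans Fxyd5 to Fxyd3 and distances are not to scale. Fxyd5 stands at 2.22 in Pax7 arrays, and the highest of its neighbours is Gramd1a at 0.60.

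Genes that work with the pump were described from 5 further lists, chosen with earlier results of these data known. Their counts and medians are therefore a description, and adjusted p-values of single genes are no test of a list. Among related ion pumps and their small regulators, 3 of 13 measured genes rose and 2 fell in Pax3 arrays and 2 rose and 2 fell in Pax7 arrays, with median log2 differences of 0.01 and 0.06, beside 39.6% of all genes called for Pax3 and 43.2% for Pax7. Atp2a1, the calcium pump of fast muscle sarcoplasmic reticulum, fell in both (-1.02 ± 0.089 in Pax3 and -2.08 ± 0.089 in Pax7 arrays, limma adjusted p = 3.57e-06 and 7.23e-09). Atp2a2, the calcium pump of slow muscle and heart, fell less (-0.22 ± 0.040 and -0.32 ± 0.040). Atp2a3, the form of many nonmuscle cells, rose by 1.61 ± 0.057 and 1.08 ± 0.057, and the plasma membrane calcium pump Atp2b1 by 0.78 ± 0.047 and 0.81 ± 0.047. The secretory pathway pump Atp2c1 rose by 0.16 ± 0.042 in Pax3 arrays (limma adjusted p = 0.0105), a call lost once each array was centred on its own median (0.0502). Between Pax7 and Pax3 arrays, 2 of 13 passed, beside 16.9% of all genes. Both were lower in Pax7 arrays: Atp2a1 (-1.06 ± 0.089) and Atp2a3 (-0.53 ± 0.057).

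Transporters that run on the sodium gradient rose more often than they fell. Of 17 measured, 9 rose and 3 fell in Pax3 arrays and 14 rose and 2 fell in Pax7 arrays, with medians of 0.25 and 0.39. Over all genes 19.8% rose and 19.7% fell in Pax3 arrays, and 21.6% and 21.5% in Pax7 arrays. The glutamine carrier Slc1a5 rose by 2.87 ± 0.050 in Pax3 and 2.82 ± 0.050 in Pax7 arrays (limma adjusted p = 1.49e-11 and 9.78e-12). The phosphate carrier Slc20a2 (0.85 ± 0.039 and 1.04 ± 0.039), the neutral amino acid carrier Slc1a4 (0.83 and 0.70), the inositol carrier Slc5a3 (0.65 and 1.05) and the bicarbonate carrier Slc4a4 (0.61 and 0.43) also rose in both, while the taurine carrier Slc6a6 fell (-0.81 ± 0.047 and -0.84 ± 0.047). The mitochondrial sodium-calcium exchanger Slc8b1 rose in Pax7 arrays (0.65 ± 0.053) and did not pass in Pax3 arrays (0.06 ± 0.053, adjusted p = 0.403). Slc12a2, which brings sodium, potassium and chloride into the cell, averaged 8.98 in control arrays, 8.77 with Pax3 and 9.62 with Pax7. It fell by 0.22 ± 0.056 in Pax3 arrays (limma adjusted p = 0.00902) and rose by 0.63 ± 0.056 in Pax7 arrays (2.98e-06). Its SD was 0.0000 over control arrays and 0.118 over Pax3 arrays, so the control SD says little about how repeatable the measurement was. In Pax7 against Pax3 arrays 8 of 17 were higher and 1 was lower, led by Slc12a2 (0.85 ± 0.056), Slc8b1 (0.59 ± 0.053) and Slc5a3 (0.40 ± 0.062). Over all genes, 8.33% were higher and 8.54% lower in that comparison. Slc4a4 lay low on the scale (5.15, 5.76 and 5.58 on average in control, Pax3 and Pax7 arrays), so its presence is not shown.

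Channels through which sodium, potassium, calcium or chloride cross the muscle membrane gave 4 rises and 3 falls among 12 measured genes in each comparison with control. Medians were 0.04 for Pax3 and 0.03 for Pax7, beside 39.6% and 43.2% of all genes called. The potassium channel Kcnq5 rose by 2.42 ± 0.083 and 3.20 ± 0.083 in Pax3 and Pax7 arrays and the calcium-activated potassium channel Kcnn4 by 1.36 ± 0.064 and 1.55 ± 0.064. Falls were seen in Cacna1s, the voltage sensor of excitation-contraction coupling (-1.73 ± 0.068 and -2.40 ± 0.068), the calcium-activated channel Kcnn3 (-0.57 ± 0.093 and -1.43 ± 0.093) and Abcc9, a subunit of ATP-sensitive potassium channels (-0.68 ± 0.068 and -0.59 ± 0.068). The inward rectifier Kcnj12 stood at 0.19 ± 0.059 and 0.16 ± 0.059 (limma adjusted p = 0.0231 and 0.0491), calls that were lost in several alternatives (up to 0.0974 and 0.259). They included the removal of control replicate 1 or control replicate 2 in both comparisons, of Pax3 replicate 2 in the first, and of Pax3 replicate 3 or any Pax7 array in the second. The sodium channel subunit Scn4b rose in Pax7 arrays (0.27 ± 0.073, limma adjusted p = 0.0119), low on the scale at means of 4.86 in control and 5.12 in Pax7 arrays. Set against Pax3 arrays, Kcnq5 was higher in Pax7 arrays (0.78 ± 0.083) and Kcnn3 (-0.86 ± 0.093) and Cacna1s (-0.67 ± 0.068) were lower. These were 3 of 12 in all, beside 16.9% of all genes. Over Pax3 arrays the SD of Cacna1s and of Kcnn3 was 0.0000, which says little about how repeatable these values were.

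Anchors, kinases and interacting proteins of the pump gave 9 rises and 6 falls among 20 in Pax3 arrays and 8 rises and 7 falls in Pax7 arrays. Medians were 0.06 and 0.10, and over all genes 39.6% passed for Pax3 and 43.2% for Pax7. Nkain2, named for its interaction with the pump, rose by 1.67 ± 0.090 in Pax3 and 1.73 ± 0.090 in Pax7 arrays (limma adjusted p = 7.12e-08 and 3.67e-08). It averaged 5.42 in control arrays, low on the scale, so its presence there is not shown. The kinase Stk39, which acts on cation-chloride carriers such as Slc12a2, rose by 1.02 ± 0.065 and 0.70 ± 0.065, the membrane adaptor Ank2 by 0.99 ± 0.056 and 0.42 ± 0.056, and the ubiquitin ligase Nedd4l by 0.53 ± 0.047 and 0.88 ± 0.047. Falls were seen in Sik1, a salt-inducible kinase (-1.11 ± 0.056 and -1.44 ± 0.056), Sgk1, a kinase that raises sodium transport (-0.95 ± 0.043 and -1.09 ± 0.043), and protein kinase C alpha, Prkca (-0.60 ± 0.060 and -0.95 ± 0.060). Caveolin 1 (Cav1) fell by 1.37 ± 0.064 in Pax7 arrays and did not pass in Pax3 arrays (-0.07 ± 0.064, adjusted p = 0.481). The difference itself passed, with Cav1 lower in Pax7 than in Pax3 arrays by 1.30 ± 0.064 on the log2 scale (adjusted p = 2.42e-07). Of the 20, 2 were higher in Pax7 arrays than in Pax3 arrays and 7 lower, with Ank2 (-0.57 ± 0.056) and Nedd4l (0.35 ± 0.047) next in size. Over all genes, 8.33% were higher and 8.54% lower. Of these list calls, the lower Sgk1 and Wnk1 and the higher Src were lost in several alternatives (limma adjusted p up to 0.156, 0.137 and 0.0706).

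Fxyd5 and the beta subunits are both tied to cell contacts, and cadherin junction genes were split. Of 9 measured, 4 rose and 3 fell in Pax3 arrays and 3 rose and 4 fell in Pax7 arrays. Medians were 0.00 and 0.04, and 39.6% of all genes passed for Pax3 and 43.2% for Pax7. Plakoglobin (Jup) rose by 1.17 ± 0.061 and 2.47 ± 0.061 (limma adjusted p = 5.42e-08 and 1.02e-10), while M-cadherin (Cdh15), the cadherin of myoblasts, fell (-0.73 ± 0.038 and -0.65 ± 0.038). E-cadherin (Cdh1), the cadherin linked to Fxyd5, did not pass in either comparison (5.35, 5.35 and 5.38 on average in control, Pax3 and Pax7 arrays, limma adjusted p = 0.976 and 0.63). Alpha-catenin Ctnna1 (0.29 and 0.31) and occludin Ocln (0.20 and 0.29) rose in both comparisons, and beta-catenin Ctnnb1 fell (-0.25 and -0.19). Ocln lay low on the scale (4.05, 4.24 and 4.33 on average in control, Pax3 and Pax7 arrays), so its presence is not shown. The junction scaffold Tjp1 fell in Pax7 arrays (-0.62 ± 0.045) and did not pass in Pax3 arrays (-0.08 ± 0.045). N-cadherin (Cdh2, 0.14 ± 0.041) and p120-catenin (Ctnnd1, -0.13 ± 0.041) passed in Pax3 arrays at limma adjusted p = 0.0194 and 0.0288. These calls were lost in other settings (up to 0.0758 and 0.0952), among them the removal of control replicate 2 for both, of control replicate 3 or Pax3 replicate 1 for Cdh2, and of control replicate 1 or Pax3 replicate 3 for Ctnnd1. Jup was higher in Pax7 than in Pax3 arrays (1.30 ± 0.061) and Tjp1 lower (-0.54 ± 0.045), 2 of 9 in all, beside 16.9% of all genes.

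**Figure D4:**
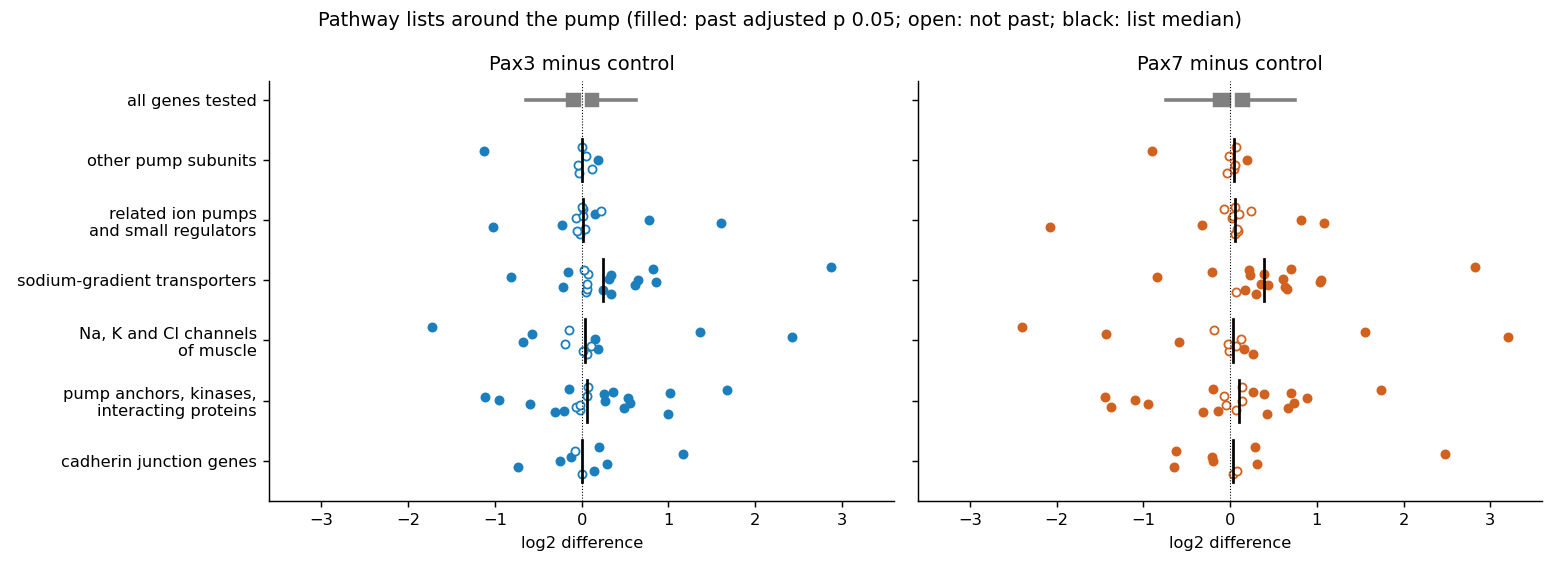
Log2 difference from control (x axis) of each measured gene in 6 lists around the pump, in Pax3 arrays (left) and Pax7 arrays (right); filled points passed limma adjusted p 0.05, open points did not, black lines are list medians, and the grey bars at the top show the spread of all genes tested (thick for percentiles 25 to 75, thin for 5 to 95, white tick at the median). The transporter list has medians of 0.25 and 0.39, with genes on both sides of 0, and the medians of the other lists lie closer to 0.

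Marker lists of other cell states differed between the same groups. Of 10 markers of differentiated muscle, 10 fell in each comparison with control, and their summed linear intensity ranged from 19309 to 21478 in control arrays, 7532 to 7733 with Pax3 and 3667 to 4348 with Pax7. Myh1 (-4.14 and -4.25), Tnnt1 (-3.15 and -3.84) and Ckm (-2.80 and -3.28) were among those with large falls. Of 6 epithelial markers, 4 rose in each comparison, with summed intensities of 360.0 to 395.7 in control arrays, 458.7 to 472.3 with Pax3 and 827.5 to 900.5 with Pax7. Keratin 18 (Krt18) changed by 0.66 ± 0.094 and 2.44 ± 0.094 in Pax3 and Pax7 arrays, and Epcam by 0.18 ± 0.054 and 0.71 ± 0.054. Epcam lay low on the scale (5.02, 5.20 and 5.73 on average in control, Pax3 and Pax7 arrays), so its presence is not shown. The SD of Krt18 over Pax3 arrays was 0.0000, which says little about how repeatable that value was. Of the defining epithelial genes, Cdh1 and Esrp1 did not pass in either comparison. For Fxyd5, the order of the groups was that of the epithelial sum, with Pax7 arrays highest. The sums of the leukocyte and endothelial marker lists had the same order, so it was not particular to the epithelial list. Fxyd6 and the differentiated muscle sum were both highest in control arrays, but Fxyd6 was lowest in Pax3 arrays and the muscle sum in Pax7 arrays. The part of these markers in the subunit values was not tested. Beside the overlapping values of Atp1b2, 0 of 5 measured glial markers passed in limma in any comparison (lowest adjusted p = 0.0821, for Mbp in Pax7 arrays), and 2 had an unadjusted p under 0.05, both in Pax7 against control.

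To see which genes ran most like each subunit gene, every gene was centred on its own mean over the 9 arrays, and the root mean square of the difference was taken over the arrays. The 9 points share 3 groups, so likeness mostly means like group means. The 3 closest genes were picked for the smallest differences, so they lie below the median over all genes by construction. The closest to Atp1b1 were the mitochondrial aspartate-glutamate carrier Slc25a13 (0.141 log2 units), the phospholipase Plce1 (0.184) and Lix1 (0.192), against a median of 0.643 over all genes compared. Slc25a13 averaged 7.68, 7.11 and 8.60 in control, Pax3 and Pax7 arrays, and so was low in Pax3 and high in Pax7 arrays like Atp1b1. The closest to Fxyd5 were the protease Bace2 (0.119), the oxidase Nox3 (0.130) and the chloride intracellular channel protein Clic5 (0.134), against a median of 0.970. Bace2 averaged 6.37, 6.95 and 8.77 in the same order. For Atp1b3 they were Trnau1ap (0.0248), Scgb2b24 (0.0250) and Vapa (0.0254), against 0.146. Scgb2b24 lay low on the scale (3.52, 3.74 and 3.73 on average in the same order), so its presence is not shown. For the flat Atp1b2 (Enam, Defb41 and C7, 0.0119 to 0.0164) and Fxyd1 (Ppp1r3d, Slc24a1 and Svip, 0.0209 to 0.0230), likeness reflects values that hardly vary.

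**Figure D5:**
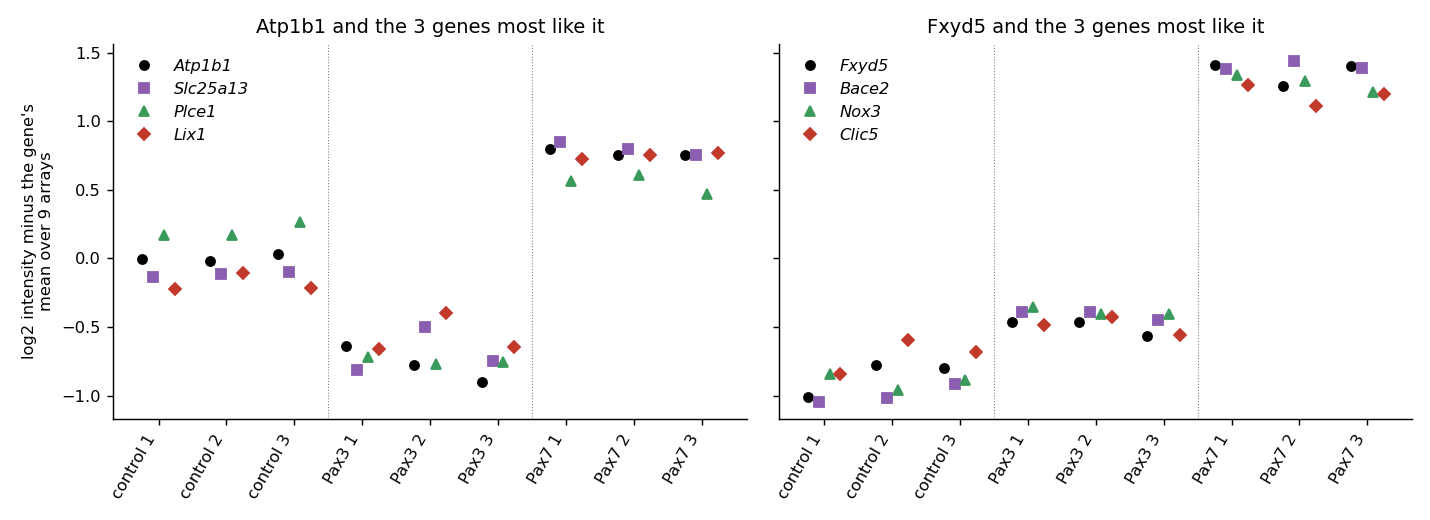
Log2 intensity minus the gene's own mean over 9 arrays (y axis) in each array (x axis) for Atp1b1 (left) and Fxyd5 (right) with the 3 genes closest to each; symbols are single arrays and dotted lines separate groups. The companions of Atp1b1 are low in the Pax3 arrays and high in the Pax7 arrays, and those of Fxyd5 are highest in the Pax7 arrays.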

How the data were processed

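RNA from 9 myoblast samples was biotin-labelled by an Affymetrix protocol, per the labels. The log2 intensities the authors deposited came from RMA and R 2.10.0, per the submitters' processing notes. The genome build behind them is not given in the sources used here. All 9 columns were used (array medians 6.40 to 6.48). The platform annotation named 20777 of 25668 probe sets with 1 symbol, and the probe set with the highest mean stood for each of 19661 genes. Probe sets of gene families can share signal.

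Using limma 3.58.1 (R 4.3.3), group means were modelled on the 9 arrays together, with Benjamini-Hochberg adjustment over all genes and a threshold of 0.05, after tests on simulated data. The number of arrays limits precision. The 5 subunit genes and all lists were chosen with earlier results of these data known, and lists are described by counts and medians. Named were the 5 genes, other measured subunits, up to 6 called genes per list against control and 3 between Pax7 and Pax3 arrays, up to 3 per marker list, neighbours of Fxyd5, and the 3 genes most like each subunit gene out of 16750 (clone, predicted, pseudogene, receptor, immunoglobulin and small RNA symbols skipped). Myod1, Cdh1 and Esrp1 were named after their values were seen. Alternatives covered filters, scaling, the fit, the threshold, the replicate block and left-out arrays. Promoters came from RefSeq (GRCm38.p6).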

Additional observations from a re-analysis of the deposited data

Results flagged for a closer look

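Atp1b1 was looked at again because every Pax3 array lay below every control array while every Pax7 array lay above them. Pax7 arrays exceeded Pax3 arrays by 1.54 log2 units. The difference was not tested, since the gene was chosen with these contrasts in view, and the control arrays, which enter both comparisons, differ from the others in Xist and Y-linked transcripts. The value between Pax7 and Pax3 arrays does not involve the control arrays and ranged from 1.47 to 1.61 when single arrays were left out.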

How the results depend on the processing

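Differences of Atp1b1, Atp1b3 and Fxyd5 from control kept their direction when arrays were centred or quantile-normalized again. Leaving out single arrays could not reverse them, since their groups did not overlap with control. Averaging all probe sets could not change them either, since each gene has 1. For the flat genes, Atp1b2 in Pax7 against control came to -0.01 with arrays centred on their medians and -0.0423 with quantile normalization repeated, and Fxyd1 to -0.0872 with the latter; the cause was not tested. A treat test against a fold change of 1.2 asks for more by construction and left 3264, 3819 and 784 genes for Pax3 against control, Pax7 against control and Pax7 against Pax3. In the same order it left 1, 1 and 0 of the other subunits and 6, 10 and 2 transporters. It left 3 related pumps, 9 anchors and 2 junction genes for Pax3 against control, 3 junction genes for Pax7 against control and 2 anchors for Pax7 against Pax3. Without the lowest 50% of genes, where fewer genes are tested, 1 other subunit and 4 channels passed in each comparison with control and 1 related pump between Pax7 and Pax3. Fitting only the 2 groups compared left 5 channels between Pax7 and Pax3. Leaving out 1 array gave 1 to 2 other subunits in each comparison and 3 to 5 channels between Pax7 and Pax3. Of 54, 56 and 29 called list and neighbour genes, 44, 51 and 23 passed in all alternatives besides treat in which they were still tested (the filters drop dim genes such as Ocln), and 0 reversed. Replicate numbers did not clearly pair the arrays. Same-numbered deviations correlated at -0.026 to 0.225, over 0.1 in 3 of 9 pairs. Those with different numbers correlated at -0.247 to 0.246, over 0.1 in 3 of 18 pairs, and 4 of 9 arrays were closest to their own number. With the replicate block 7902, 8707 and 3328 genes passed, against 7780, 8485 and 3316 without it, and 3 list calls were lost (Ctnnd1, Sgk1, Wnk1). Other probe sets of the subunit genes could not be tried, as each has 1.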

Other observations

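Markers of further cell types were low or mixed. Of 6 fibroblast markers, only Pdgfra passed against control, at 0.42 ± 0.081 in Pax3 and 0.58 ± 0.081 in Pax7 arrays (limma adjusted p = 0.00149 and 0.000134). The neuronal cytoskeleton genes Map2 (-1.79 ± 0.058 and -1.18 ± 0.058) and Tubb3 (-1.004 ± 0.084 and -0.72 ± 0.084) fell in both comparisons, and Syt1 rose in Pax7 arrays (0.19 ± 0.054, limma adjusted p = 0.0157). The SD of Map2 over Pax7 arrays was 0.0000, which says little about how repeatable that value was. Among 4 leukocyte markers, Cd68, a lysosomal protein, rose by 1.36 ± 0.060 and 2.04 ± 0.060, while Ptprc, Adgre1 and Csf1r did not pass. Among 4 endothelial markers, Tek rose by 0.38 ± 0.058 and 0.74 ± 0.058, and Cdh5 rose in Pax7 arrays (0.18 ± 0.048). Syt1 and Tek averaged 5.21 and 4.90 in control arrays, low on the scale, so their presence there is not shown. Of 7 myoblast markers, 2 rose and 4 fell in Pax3 arrays and 2 rose and 5 fell in Pax7 arrays, with Myf5 at 1.97 and 2.02, Vcam1 at 0.88 and 0.62 and Ncam1 at -0.54 and -1.13.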
